A study of Arabidopsis thaliana with 18 samples.

Results

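Transcripts of the WRKY transcription factor family were followed across 6 cell populations of the Arabidopsis thaliana shoot apical meristem (SAM). The members were 51 WRKY genes taken by their gene identifiers, out of 72 genes that carry a WRKY name in the RefSeq annotation and 8444 genes that stood in at least 1 of the authors' deposited tables. Of the 51 members, 35 stood in at least 1 table and 16 in none. All plants were ap1cal double mutants, which pile up meristems in place of flowers, and all carried the same 3 fluorescent reporters: pAtML1::mTag-BFP-ER for the epidermis, pREV::REV-2YPET for the central domain of the HD-ZIPIII factor REVOLUTA (REV), and a GFP driven by the miR165a promoter for the periphery. About 50 SAMs of plants 4 to 5 weeks old were digested to protoplasts, which are cells without walls, and sorted by colour. Epidermal miR165a (BFPGFP), epidermal REV (BFPYFP) and epidermal gap cells (BFP, with neither domain reporter) carried BFP. Subepidermal miR165a (GFP), subepidermal REV (YFP) and all negative cells (AllNeg, with no reporter) did not. Each population had 3 libraries, 18 in all, and no treatment was applied. The reporters mark domains and not single cell types, and REV-2YPET carries REV coding sequence, so reads from it can count as REV.

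WRKY proteins bind DNA through a domain named after its conserved heptapeptide, and most of them recognise the W-box, a short element with the core TTGAC. They are best known as the transcriptional output of immune and stress signalling: receptors at the plasma membrane start a cascade of MAP kinases, which phosphorylates some WRKY factors, and these then switch defence, wounding and senescence genes, other WRKY genes included. Several members have developmental roles instead, in trichomes, seed coats, pollen, the pith of the stem and senescence of leaves. REV has been described as a direct activator of WRKY53 in leaf senescence, which links this family to the HD-ZIPIII factors that miR165a restricts.

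The data were 15 tables, 1 for each pair of the 6 populations, from a single model on all of them. Each table lists a gene where its adjusted p was 0.05 or less and its log2 fold change at least 1 in size. A member is called higher or lower where a table lists it, and values are the log2 fold change ± its standard error in the authors' deposited tables. These fold changes appear shrunken towards 0 for genes of low count. A member that a table does not list missed a limit there, which does not show equal levels. Values per library were not analysed here, so neither the spread between libraries nor the depth of each can be given, and the p-values are those of 3 replicates per population, which the study describes as biological. In bulk populations, fewer cells of a type and less RNA per cell cannot be told apart.

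The sort markers REV and ATML1 came out on their labelled side where they were listed. REV was not listed between epidermal REV and all negative cells. REV (AT5G60690) was lower in miR165a than in REV cells, with -1.17 ± 0.15 for the epidermal pair and -1.35 ± 0.15 for the subepidermal pair, and another annotated gene overlaps it. The 6 epidermal genes on the list, with the homeodomain gene ATML1 first among them, were all higher in epidermal cells, between 4.44 and 6.14 in the 3 comparisons of an epidermal with an inner population (epidermal gap against all negative, and each domain across layers). MIR165A stood in no table, and the other 3 genes of the miR165a domain list (KAN1, FIL and YAB3) were higher in miR165a cells in both layers. Between 20703 and 22074 genes were tested per comparison, many of them at low counts, and this is the background against which counts of members are set.

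Within the epidermis, most members that were called were low in epidermal REV cells. Of the 51 members, 13 were higher (25.5%) and 1 was lower (1.96%) in epidermal miR165a than in epidermal REV cells. Of all genes tested, many at low counts, 12% were higher and 5.27% lower. The gap was smaller among listed genes. Of the 8444 genes listed in any comparison, 29.4% were higher and 12.9% lower here, beside 13 and 1 of the 35 listed members. At a mean count of at least 50, 7 of these 14 calls remained. Of 4 stomatal lineage genes, 4 were higher and 0 lower in epidermal miR165a than in epidermal REV cells. The part of stomatal cells in the 14 calls was not tested. The members were chosen with earlier results of these data known. Between epidermal REV and subepidermal REV cells 15 members were lower and 3 higher in the epidermis, against 13% and 5.1% of genes tested. Of the 8444 listed genes, 31.9% were lower and 12.5% higher. Between epidermal REV and epidermal gap cells 9 members were lower and 0 higher, against 5.12% and 1.49% of genes tested. Of the 8444 listed genes, 12.6% were lower and 3.65% higher. At the other end, subepidermal miR165a and all negative cells differed in 1 member (WRKY35, at -2.20 ± 0.40) against 1.54% of genes lower and 0.531% higher. Epidermal miR165a and epidermal gap cells differed in 2 members each way, against 3.75% higher and 2.04% lower, which is close to the background.

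**Figure D1:**
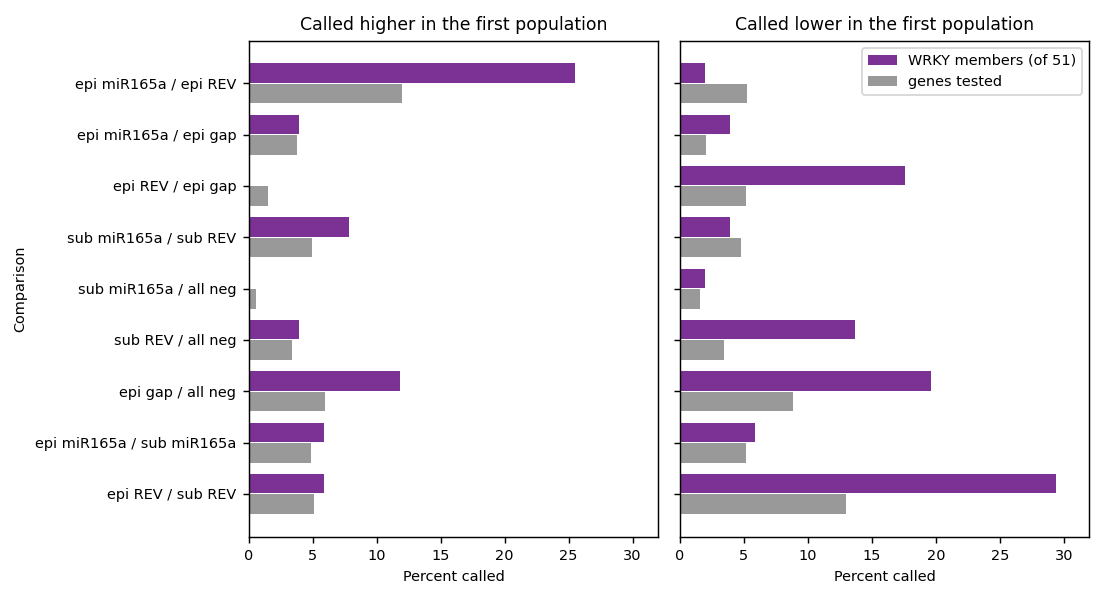
Share of the 51 WRKY members (purple) and of the genes tested (grey) called in 9 comparisons, as percent, with genes higher in the first named population on the left and lower on the right. The longest purple bars are 29.4% lower in epidermal REV than in subepidermal REV and 25.5% higher in epidermal miR165a than in epidermal REV cells.

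The remaining comparisons mix layer and domain. Members called in either direction numbered 17 between epidermal REV and all negative cells (24% of genes tested), 9 between epidermal miR165a and all negative cells (11.4%), and 13 between subepidermal miR165a and epidermal REV cells (23.9%). Of the 8444 listed genes, 22.7% were higher and 40.1% lower in epidermal REV than in all negative cells. Beside them stood 2 and 15 of the 35 listed members. In epidermal miR165a against all negative cells the shares were 13.8% and 16.0%, beside 3 and 6 members. In subepidermal miR165a against epidermal REV cells they were 37.8% and 20.9%, beside 12 and 1. Members called numbered 18 between subepidermal REV and epidermal miR165a cells (14.4% of genes tested), 15 between subepidermal REV and epidermal gap cells (13%) and 11 between subepidermal miR165a and epidermal gap cells (14.8%). Of the listed genes, 18.6% were higher and 19.1% lower in subepidermal REV than in epidermal miR165a cells, beside 8 and 10 members. In subepidermal REV against epidermal gap cells the shares were 19.4% and 14.6%, beside 7 and 8 members. In subepidermal miR165a against epidermal gap cells they were 21.6% and 14.6%, beside 7 and 4. The 18 of 51 members are 35.3%, the highest share of the 15 comparisons, which the comparison of epidermal with subepidermal REV cells also reached.

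**Figure D2:**
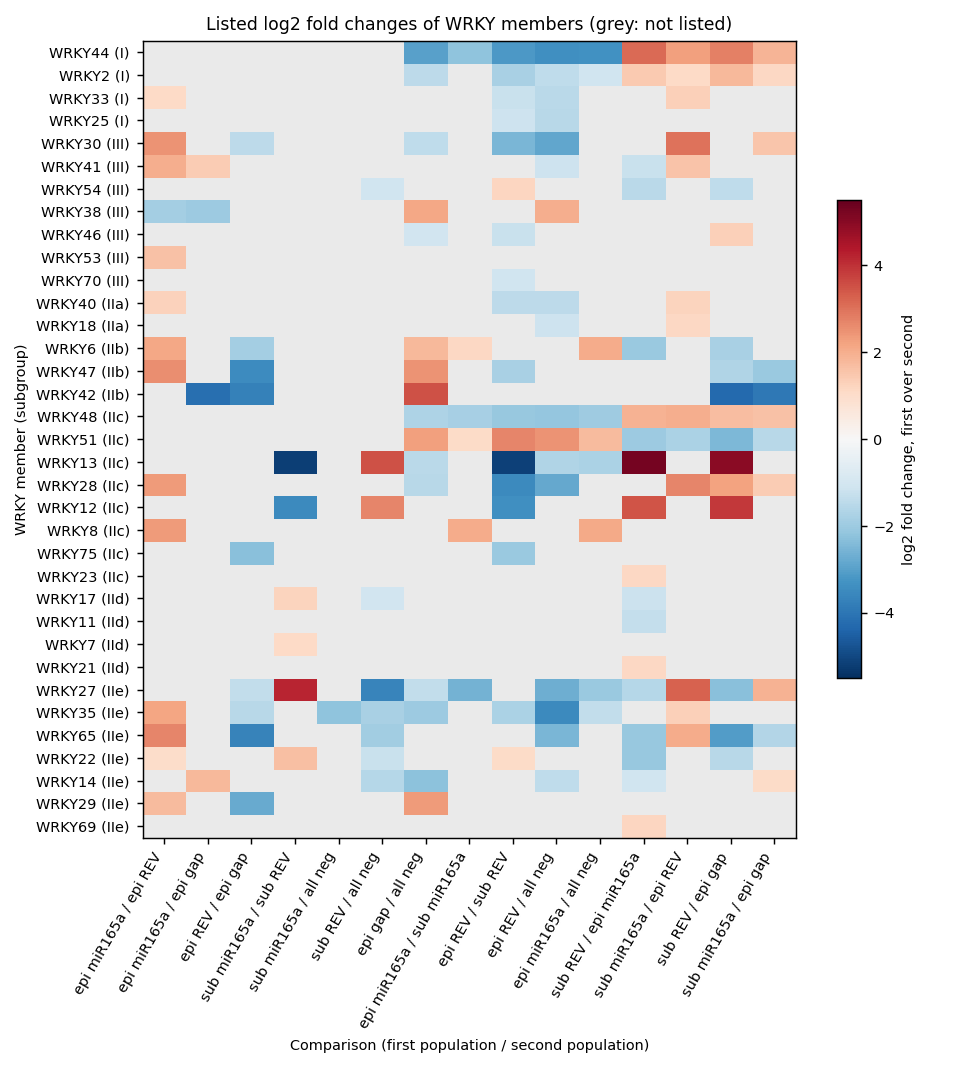
Log2 fold change of the 35 listed WRKY members (rows, with subgroup) in the 15 comparisons (columns, first over second population), red where higher in the first and blue where lower, and grey where not listed. WRKY13 and WRKY12 stand out in each column with subepidermal REV cells against another population, and WRKY44, WRKY48 and WRKY51 in the columns that set an epidermal against an inner population.

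Of the 51 members 68.6% were in at least 1 table. Of all genes 8444 were, with 20703 to 22074 tested per comparison. Of the 21 WRKY genes outside the members, 10 were in a table. By subgroup the listed members were 7 of 7 in IIe, 7 of 8 in III, 8 of 11 in IIc, 4 of 6 in IId, 3 of 6 in IIb and 2 of 3 in IIa. The differences between subgroups were not tested. Of the 10 members of subgroup I, which carry a pair of WRKY domains, 4 were listed (WRKY2, WRKY25, WRKY33 and WRKY44). WRKY27 was called in 11 of the 15 comparisons, and WRKY48, WRKY51, WRKY44 and WRKY35 in 9 each. By mean normalized count over all libraries, which does not correct for gene length, the members ran from 15403 for WRKY33, 10648 for WRKY40 and 8781 for WRKY18 down to 3.04 for WRKY38.

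The 13 members higher in epidermal miR165a than in epidermal REV cells, by 1.02 to 2.68, included several known from defence and stress. WRKY30 (AT5G24110), induced by oxidative stress and pathogens, was higher in epidermal miR165a than in epidermal REV cells by 2.48 ± 0.51, a 5.58-fold difference with an adjusted p of 9.4e-06. For 17 members whose listed fold changes link all 6 populations, the level in each can be rebuilt from these and the mean count. For WRKY30 they were 95.2 normalized counts in epidermal REV cells, 260 in epidermal gap, 532 in epidermal miR165a, 536 in subepidermal REV, 692 in all negative and 743 in subepidermal miR165a cells. Epidermal REV cells thus stood lowest, and no table separates the neighbours among the 4 highest. WRKY28 (AT4G18170), an activator of the salicylate gene ICS1, had its lowest rebuilt level in the same population at 84.9, against 435 in epidermal miR165a and 952 in subepidermal REV cells, the highest. For WRKY28 no listed comparison separated epidermal REV from epidermal gap cells. Nor did any separate subepidermal REV cells from all negative cells or either miR165a population.

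WRKY6 (AT1G62300), a senescence and defence factor, was higher in epidermal miR165a cells than in epidermal REV cells by 2.13 ± 0.32. Its rebuilt levels were 2352 in epidermal miR165a and 1944 in epidermal gap cells, against 538 in epidermal REV, 567 in all negative, 572 in subepidermal REV and 1072 in subepidermal miR165a cells. Unlike WRKY30 and WRKY28, WRKY6 had near values in subepidermal REV and epidermal REV cells, and no table separates these. WRKY41 of subgroup III was higher in epidermal miR165a than epidermal REV cells by 2.01 ± 0.42. WRKY8, known for salt and virus responses, was higher by 2.35 ± 0.68 at a mean count of 13.2.

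Of the 3 members with the highest mean count, WRKY33 and WRKY40 were among these 13. WRKY33 (AT2G38470), which activates camalexin synthesis against necrotrophic fungi, was higher in epidermal miR165a than in epidermal REV cells by 1.09 ± 0.14 and WRKY40, a repressor of immune and abscisic acid responses, by 1.25 ± 0.28, a call that the fit on these 2 populations alone did not list. WRKY18, the close relative and partner of WRKY40, was called in 2 comparisons, both with epidermal REV cells. The values were -1.15 ± 0.13 for epidermal REV against all negative and 1.14 ± 0.13 for subepidermal miR165a against epidermal REV. Between epidermal and subepidermal REV cells WRKY18 was not listed. WRKY60, the last of that trio, stood in no table. WRKY53 (AT4G23810), the senescence factor tied to REV, was listed in 1 comparison of the 15, higher in epidermal miR165a than in epidermal REV cells by 1.59 ± 0.23 (adjusted p = 3.8e-11). No table listed WRKY53 between any other populations, so epidermal REV cells were placed below epidermal miR165a cells alone. WRKY38, a repressor of basal defence, was the exception in direction, lower in epidermal miR165a than in epidermal REV cells at -1.88 ± 0.72 at a mean count of 3.04.

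The sequences before 4 of these genes are shown because they hold W-boxes, the element that WRKY factors bind. They are the 300 bases before the annotated gene start in the RefSeq assembly TAIR10.1, 5′ to 3′ on the strand of the gene, at chr2:16107935-16108234 (plus strand) for WRKY33, chr5:8154711-8155010 (minus) for WRKY30, chr4:12393983-12394282 (minus) for WRKY53 and chr4:6758798-6759097 (plus) for WRKY41. Capitals mark TTGACC or TTGACT on either strand, so that a box on the other strand reads GGTCAA or AGTCAA.
WRKY33: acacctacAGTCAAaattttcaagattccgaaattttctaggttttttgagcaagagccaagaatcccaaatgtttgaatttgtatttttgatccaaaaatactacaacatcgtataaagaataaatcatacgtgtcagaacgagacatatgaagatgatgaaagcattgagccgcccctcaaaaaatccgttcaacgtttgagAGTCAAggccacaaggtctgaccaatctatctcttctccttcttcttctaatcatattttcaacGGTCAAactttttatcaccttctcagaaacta
WRKY30: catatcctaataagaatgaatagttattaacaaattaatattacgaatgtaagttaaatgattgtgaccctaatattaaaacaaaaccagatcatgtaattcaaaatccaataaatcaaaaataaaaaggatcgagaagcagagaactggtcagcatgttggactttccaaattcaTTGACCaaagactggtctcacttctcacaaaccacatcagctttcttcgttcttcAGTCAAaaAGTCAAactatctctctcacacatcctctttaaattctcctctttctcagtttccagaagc
WRKY53: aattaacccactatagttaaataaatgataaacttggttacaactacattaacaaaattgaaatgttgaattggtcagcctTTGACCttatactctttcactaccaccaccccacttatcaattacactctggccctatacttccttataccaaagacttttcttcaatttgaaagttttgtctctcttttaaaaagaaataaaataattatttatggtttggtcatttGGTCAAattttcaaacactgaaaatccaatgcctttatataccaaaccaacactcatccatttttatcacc
WRKY41: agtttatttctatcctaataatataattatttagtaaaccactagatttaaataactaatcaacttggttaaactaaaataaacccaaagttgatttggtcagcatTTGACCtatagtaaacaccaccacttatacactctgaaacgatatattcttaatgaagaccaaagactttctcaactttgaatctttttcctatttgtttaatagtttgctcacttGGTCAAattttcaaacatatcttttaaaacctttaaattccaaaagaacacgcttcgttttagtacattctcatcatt

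WRKY33 and WRKY30 held 3 such boxes each, the nearest starting 32 and 61 bases before the gene start. WRKY53 and WRKY41, both of subgroup III, held 2 each, 1 in each orientation, starting 219 and 71 bases before the start of WRKY53 and 194 and 78 before that of WRKY41. Of the 13 members higher in epidermal miR165a than in epidermal REV cells, 6 (46.2%) held at least 1 box and 5 (38.5%) at least 2. Among all 51 members 21 (41.2%) held 1 or more and 9 (17.6%) 2 or more. Among 27443 protein-coding genes the shares were 32.3% and 7.91%. Of the 16 unlisted members 8 (50.0%) had a box as well. A match is a description of the letters and not a bound site.

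Genes around the WRKY factors in the pathway were called in the same comparison. Between epidermal miR165a and epidermal REV cells 12% of genes tested were higher and 5.27% lower. The lists were chosen with earlier results of these data known. Of 14 genes on the list of immune receptors and MAP kinases, 5 were higher and 0 lower in epidermal miR165a than in epidermal REV cells: the flagellin receptor FLS2 (1.95 ± 0.34), the EF-Tu receptor EFR (1.85 ± 0.37), the receptor-associated kinase BIK1 (1.42 ± 0.17), MKK1 (1.52 ± 0.29) and MPK11 (1.95 ± 0.33). Of 16 genes reported as under WRKY control, 5 were higher and 0 lower in the same comparison, among them the salicylate regulator CBP60G (3.14 ± 0.30), the defence gene NHL10 (2.98 ± 0.52) and the ethylene synthesis gene ACS2 (1.74 ± 0.23). Of 4 VQ proteins, which bind WRKY factors, JAV1 was higher by 1.93 ± 0.45. Below the epidermis FLS2, EFR, BIK1 and MPK11 were also higher in miR165a than in REV cells, FLS2 by 1.90 ± 0.34 and BIK1 by 1.52 ± 0.17. In that comparison 4.95% of genes tested were higher and 4.79% lower. Of the 16 genes under WRKY control 1 was higher and 1 lower. The WRKY33 partners SIB1 and SIB2 were higher there by 1.61 ± 0.13 and 1.97 ± 0.32, while WRKY33 itself was not listed and its fold change summed over other tables was 0.11, with a standard error of at most 0.20. Another annotated gene overlaps each of FLS2, EFR, MKK1 and SIB2, and without strand their reads cannot be assigned to one gene of the pair.

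Genes of wounding, touch and heat moved in some of the same comparisons. Of 14 on that list 8 were higher and 0 lower in epidermal miR165a than in epidermal REV cells (12% of genes tested were higher), from TCH3 at 1.06 ± 0.13 to the jasmonate-responsive VSP1 at 3.78 ± 0.21. Other annotated genes overlap TCH3. In epidermal REV against subepidermal REV cells 7 were lower and 0 higher (13% of genes tested were lower), and in subepidermal miR165a against epidermal REV cells 10 were higher and 0 lower (15.4% of genes tested were higher). Of the 14, 0 were called between the subepidermal miR165a and REV cells, where 6 members were. Again 0 were called between subepidermal REV and all negative cells, where 9 members were. In epidermal REV against gap cells, where 9 members were lower, 1 of the 14 was lower and 0 higher. Digestion and sorting can induce genes of this list, and many WRKY genes respond to wounding. Their part in the WRKY differences was not tested.

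In subepidermal REV cells, 2 members were high that were near the bottom elsewhere. WRKY13 (AT4G39410), which acts in lignin deposition of the stem, was lower in miR165a than in REV cells of the subepidermis at -5.17 ± 0.57, a 36.0-fold difference with an adjusted p of 1.2e-17. WRKY12 (AT2G44745), a repressor of secondary walls in the pith, was lower at -3.51 ± 0.62, or 11.4-fold. Rebuilt levels of WRKY13 were 135 normalized counts in subepidermal REV cells, 12 in all negative cells and between 3.55 and 4.29 in the other 4 populations. For WRKY12 they were 30.7 in subepidermal REV, 4.78 in all negative and between 2.05 and 2.96 in the others. Both genes were also higher in subepidermal REV than in all negative cells, at 3.49 ± 0.50 and 2.68 ± 0.59. The other comparisons with subepidermal REV cells share these libraries and gave 4.98 to 5.25 for WRKY13 and 3.46 to 3.91 for WRKY12 against epidermal gap and epidermal miR165a cells. In subepidermal REV against all negative cells these were the 2 members higher (3.37% of genes tested were higher), and 7 were lower (3.45%). Of the 8444 listed genes, 8.81% were higher and 9.01% lower. In the subepidermal comparison of miR165a with REV cells WRKY12 and WRKY13 were the 2 members lower (4.79% of genes tested), and 4 were higher (4.95%). Of the listed genes, 12.5% were lower and 12.9% higher.

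Vascular markers were called in the same comparisons. Of 4 on that list, the xylem factor VND7, the phloem factor APL and the procambium factor ATHB8, an HD-ZIPIII gene, were lower in miR165a than in REV cells of the subepidermis, at -4.06 ± 0.67, -3.24 ± 0.53 and -5.23 ± 0.47, and the companion cell gene SUC2 was not listed there. Against all negative cells VND7 and ATHB8 were higher in subepidermal REV cells, at 4.36 ± 0.67 and 5.57 ± 0.48, and SUC2 was lower at -3.62 ± 0.64. NST2, a wall regulator under WRKY12, was in no table. The part of vascular cells in the levels of WRKY12 and WRKY13 was not tested.

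Of the 7 members lower in subepidermal REV than in all negative cells, 5 were of subgroup IIe. WRKY27 (AT5G52830), known for its effect on bacterial wilt symptoms, exceeded its subepidermal REV level in subepidermal miR165a cells by 4.18 ± 0.41, an 18.1-fold difference (adjusted p = 1.0e-21). Its rebuilt levels were 167 in subepidermal miR165a and 113 in all negative cells, then 44.6 in epidermal gap, 27.4 in epidermal miR165a, 17.6 in epidermal REV and 9.21 in subepidermal REV cells. The 2 highest were not separated by a table, and neither were the neighbours among the 4 lowest. WRKY22 (AT4G01250), which with WRKY29 acts downstream of the FLS2 cascade, was higher by 1.65 ± 0.22 in subepidermal miR165a and by 1.02 ± 0.22 in epidermal miR165a cells than in the REV cells of the same layer. It was the 1 member called in both of these comparisons, which share no library, that is 1 of 14 members in the epidermis (7.14%) and 1 of 6 below it (16.7%), beside 927 of all genes called in the same direction in both (25.9% and 43.1% of the genes called). WRKY17 and WRKY7 of subgroup IId, negative regulators of basal resistance, were higher on the miR165a side of the subepidermal comparison by 1.21 ± 0.24 and 1.09 ± 0.29.

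WRKY35, WRKY14 and WRKY65, also of subgroup IIe, were lower in subepidermal REV than in all negative cells, at -1.78 ± 0.39, -1.57 ± 0.40 and -1.91 ± 0.57 (WRKY65 was not listed by the fit on these 2 populations alone), as were WRKY54 of subgroup III, a negative regulator of senescence (-1.09 ± 0.32), and WRKY17 (-1.07 ± 0.24). WRKY35 stood highest in all negative cells at a rebuilt 87.2, against 34.3 in epidermal miR165a, 25.5 in subepidermal REV, 21.9 in epidermal gap, 18.9 in subepidermal miR165a and 7.65 in epidermal REV cells. It was listed below all negative cells by each of the other 5 populations, comparisons that share the all negative libraries. WRKY14 had its highest rebuilt level in all negative cells, at 50.6, and its lowest in epidermal gap cells, at 10.6. For WRKY14 no listed comparison separated all negative cells from either miR165a population, or epidermal gap cells from either REV population.

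**Figure D3:**
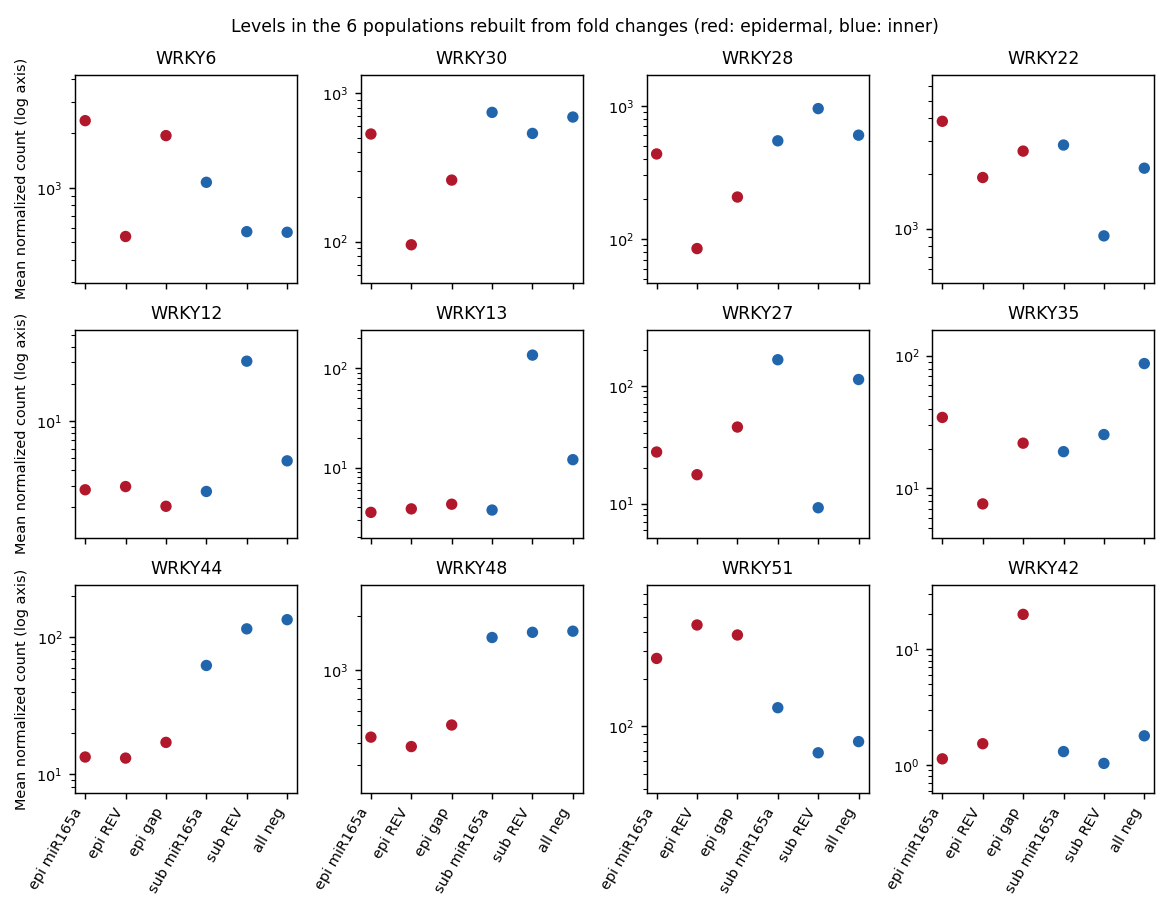
Levels of 12 WRKY members in the 6 populations (epidermal in red, inner in blue), as mean normalized counts on a log axis, rebuilt from the listed fold changes and the mean over all libraries, without error bars because the spread between libraries was not analysed. WRKY13 reached 135 in subepidermal REV cells, WRKY42 20.0 in epidermal gap cells, and WRKY30 fell to 95.2 in epidermal REV cells.

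A further set followed the layer. WRKY44 (AT2G37260), also called TTG2 and needed for trichomes and seed coat pigment, was lower in epidermal than in subepidermal miR165a cells at -2.23 ± 0.45, in epidermal than in subepidermal REV cells at -3.15 ± 0.43, and in epidermal gap than in all negative cells at -2.99 ± 0.42. Its rebuilt levels, derived from such fold changes, were 13.1 to 17.0 in the 3 epidermal populations and 62.3 to 135 in the 3 inner ones. WRKY48 (AT5G49520), a repressor of basal defence, was lower in the same 3 comparisons at -1.82 ± 0.23, -2.09 ± 0.23 and -1.72 ± 0.23, with 381 to 500 normalized counts in epidermal and 1517 to 1644 in inner populations. WRKY51 (AT5G64810) was higher in the epidermis in all 3, by 1.04 ± 0.20, 2.70 ± 0.20 and 2.25 ± 0.20, with 271 to 442 against 68.0 to 132. These 3 comparisons have no library in common. WRKY44, WRKY48 and WRKY51 were the members called in the same direction in each, 3 of the 6, 18 and 16 members called there (50.0%, 16.7% and 18.8%), beside 1142 of all genes (55.0%, 30.5% and 35.0% of those called).

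Members called between epidermal and subepidermal miR165a cells were 3 higher and 3 lower, against 4.85% and 5.17% of genes tested, which is close to the background. In epidermal gap against all negative cells 6 were higher and 10 lower, against 5.98% and 8.81%. Of the 8444 genes listed in any comparison, 15.6% were higher and 23.0% lower here, beside 6 and 10 of the 35 listed members. WRKY2 (AT5G56270), which acts in the polarity of the zygote, was lower in epidermal gap than in all negative cells at -1.44 ± 0.21 and in epidermal than in subepidermal REV cells at -1.76 ± 0.21. Its levels ran from 94.3 to 120 in epidermal and from 208 to 329 in inner populations. WRKY46, a defence and drought factor of subgroup III, was lower in the same 2 comparisons at -1.06 ± 0.20 and -1.20 ± 0.20.

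WRKY51 also differs in the heptapeptide itself. Of the 51 members, 49 carry WRKYGQK, 10 of them in 2 domains, and WRKY50 and WRKY51 carry WRKYGKK, by translation of the annotated coding sequence in TAIR10.1. Both act in the repression of jasmonate responses. The coding strand is shown for the variant pair and for 3 members with large subepidermal differences, with the codons of the heptapeptide in capitals, from chr5:25908855-25908893 (plus strand) for WRKY51, chr5:9147570-9147608 (minus) for WRKY50, chr2:18448182-18448220 (minus) for WRKY12, chr4:18333879-18333917 (minus) for WRKY13 and chr5:21411574-21411612 (plus) for WRKY27, each within 1 coding exon.
WRKY51: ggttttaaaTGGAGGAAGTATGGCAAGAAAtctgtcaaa
WRKY50: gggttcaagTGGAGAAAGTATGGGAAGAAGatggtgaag
WRKY12: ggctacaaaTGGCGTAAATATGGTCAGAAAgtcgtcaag
WRKY13: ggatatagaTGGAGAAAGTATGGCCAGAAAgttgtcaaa
WRKY27: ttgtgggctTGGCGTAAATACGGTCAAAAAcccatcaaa

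WRKY50 stood in no table. JAV1, a VQ partner of WRKY51, was lower in 3 comparisons in which WRKY51 was higher: in epidermal against subepidermal REV cells at -2.83 ± 0.45, in epidermal against subepidermal miR165a cells at -1.37 ± 0.44, and in epidermal gap against all negative cells at -1.55 ± 0.44. It was not listed between epidermal miR165a and all negative cells, where WRKY51 was higher by 1.76 ± 0.20, nor between subepidermal REV and epidermal miR165a cells, where WRKY51 was at -1.99 ± 0.21.

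Among the members high in epidermal gap cells was WRKY42. WRKY42 (AT4G04450), a regulator of phosphate transport, was lower in epidermal miR165a than in epidermal gap cells at -4.15 ± 0.71 (17.7-fold) and in epidermal REV than in epidermal gap cells at -3.71 ± 0.71, and higher in epidermal gap than in all negative cells by 3.49 ± 0.71. Its rebuilt level was 20.0 in gap cells and between 1.03 and 1.79 in the other 5 populations, near the lower end of what was listed. WRKY75, a factor of the phosphate starvation response, was lower in epidermal REV than in epidermal gap cells at -2.32 ± 0.72. WRKY47 of subgroup IIb and WRKY65 and WRKY29 of subgroup IIe were lower in epidermal REV than in epidermal gap cells at -3.47 ± 0.66, -3.66 ± 0.57 and -2.76 ± 0.68. WRKY47 and WRKY65 each had a rebuilt 25.0 and 24.9 in gap cells, 13.1 and 12.6 in epidermal miR165a cells and 2.26 and 1.97 in epidermal REV cells. WRKY14 and WRKY41 went against this, higher in epidermal miR165a than in gap cells by 1.79 ± 0.42 and 1.39 ± 0.41.

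PHO1, which exports phosphate and which WRKY6 and WRKY42 repress, was lower in epidermal miR165a and epidermal REV than in gap cells at -5.27 ± 0.62 and -4.77 ± 0.57, and higher in gap than in all negative cells by 4.87 ± 0.58. PHT1;1, a phosphate uptake gene, was in no table. Of 4 stomatal lineage genes, 3 were lower and 0 higher in epidermal REV than in gap cells, and 1 was lower and 1 higher in epidermal miR165a than in gap cells. FAMA, the factor of guard cell fate, was lower in epidermal miR165a and epidermal REV than in gap cells at -3.45 ± 0.44 and -4.90 ± 0.47, while SPCH, which starts the lineage, was higher in epidermal miR165a than in gap cells by 1.75 ± 0.38. All 4 genes were higher in gap than in all negative cells. The part of stomatal cells in the levels of WRKY42, WRKY47 and WRKY65 was not tested.

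The difference between miR165a and REV cells was then compared between the layers, to ask which members changed with domain in another way in the epidermis than below it. For 19 members both differences could be read or summed from the listed comparisons, and a two-sided z test on their difference was adjusted over 4352 genes. It passed an adjusted p of 0.05 for 11 of the 19 members (57.9%), against 43.8% of those genes. The genes in this test had to be listed in enough comparisons to be linked, so they were selected for large changes. WRKY13 differed most, by 5.05 ± 0.87 (epidermal minus subepidermal, adjusted p = 1.0e-07), being -0.12 in the epidermis and -5.17 below it, and WRKY12 differed by 3.42 ± 1.08. WRKY27 differed in the other direction, by -3.54 ± 0.58, with 0.64 in the epidermis and 4.18 below it. WRKY28 (3.16 ± 0.88), WRKY47 (2.91 ± 0.93), WRKY35 (2.59 ± 0.61), WRKY30 (2.01 ± 0.72), WRKY40 (1.46 ± 0.49) and WRKY33 (0.98 ± 0.25) had the larger miR165a to REV difference in the epidermis. WRKY51 (-1.66 ± 0.28) had -0.71 in the epidermis and 0.95 below it, and WRKY2 (0.98 ± 0.31) had 0.31 and -0.67. WRKY22, called in both layers, missed the limit with -0.63 ± 0.31 (adjusted p = 0.085).

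**Figure D4:**
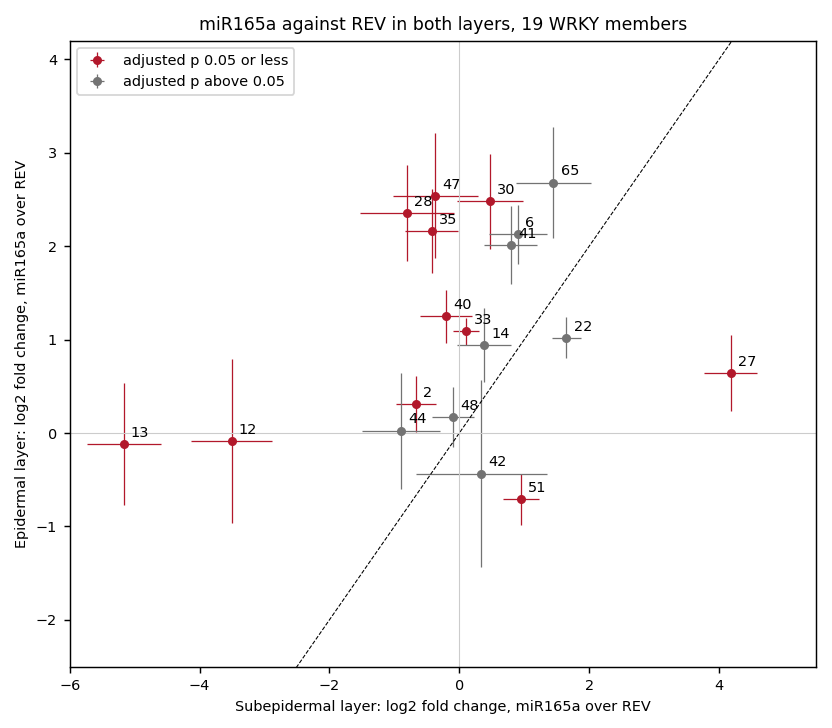
Log2 fold change of miR165a over REV cells in the subepidermal layer (horizontal) and the epidermal layer (vertical) for 19 WRKY members, labelled by number, with bars of 1 standard error at its upper bound, and a dashed line where both layers are equal. Red points passed an adjusted p of 0.05 for the difference between layers. WRKY13 and WRKY12 lie far left near 0 on the vertical axis, and WRKY27 far right at 4.18.

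The remaining listed members were called in 1 or 2 comparisons each. WRKY11, a relative of WRKY17, was lower in subepidermal REV than in epidermal miR165a cells at -1.31 ± 0.12, and WRKY21, WRKY23 and WRKY69 were higher there by 1.13 ± 0.15, 1.15 ± 0.22 and 1.18 ± 0.26. WRKY23 acts in auxin responses of the root. WRKY70, the partner of WRKY54 in salicylate signalling, was lower in epidermal than in subepidermal REV cells at -1.11 ± 0.37, where WRKY54 was higher by 1.18 ± 0.32. WRKY25, a heat and salt response factor, was lower there at -1.13 ± 0.34. The 16 members in no table were WRKY1, WRKY3, WRKY4, WRKY9, WRKY15, WRKY20, WRKY26, WRKY31, WRKY32, WRKY39, WRKY45, WRKY50, WRKY55, WRKY57, WRKY60 and WRKY61. Their levels are unknown here, since a gene may be absent for a low count as much as for a small difference. Of the 51 members 11 overlap another annotated gene, WRKY2, WRKY29, WRKY33, WRKY40, WRKY41, WRKY53 and WRKY69 among those listed, and without strand their reads cannot be assigned to one gene of such a pair.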

How the data were processed

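Messenger RNA of 6 sorted protoplast populations was sequenced, 3 libraries each. Per the labels and the study's methods, the authors ran FastQC and cutadapt, mapped reads to TAIR10 using TopHat and counted exonic reads with HTSeq, and the authors compared populations with DESeq2, with no versions given in the sources used here and no statement on strand. The authors' deposited tables hold a signal (the mean of counts divided by size factors over all libraries), a log2 fold change and standard error, a score (the Wald statistic), and a p-value with its Benjamini-Hochberg adjusted p-value. They list only genes past both limits (0 exceptions). These columns are the authors' own comparisons, used because no values per library were analysed here. They replace the planned tests on counts.

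Of the 19 tables, 15 come from 1 fit on 6 populations and 4 from fits on 2. The main values are from the former. Fold changes add up around closed loops of comparisons, so unlisted ones were summed, levels were rebuilt, and standard errors were solved or given at their upper bound. The number of genes tested is the adjusted p divided by the p at the smallest p of each table. The difference between layers was a two-sided z test adjusted by the Benjamini-Hochberg method. Simulated fold changes, for genes linked across all 6 populations, checked its arithmetic. They used another p limit for listing, so the selection of genes was not checked. Python 3.11.15, pandas 2.3.3, NumPy 2.4.6 and SciPy 1.17.1 were used. Sequences and positions are from RefSeq (TAIR10.1, whose chromosomes 1 to 5 carry the TAIR10 sequence), where all 51 members matched.

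Members and lists were chosen with earlier results of these data known. The rule for named genes took REV, MIR165A and ATML1, the 12 members called most often, the 3 highest and 3 lowest members of each comparison, those past the test between layers, WRKY53, WRKY18, WRKY40, WRKY60, WRKY50 and WRKY51, and up to 4 genes of each other list. Alternatives were a log2 limit of 2, an adjusted p of 0.01, a mean count of 50, the fits on 2 populations, standard errors 1.5 times as wide, and genes listed in both tables.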

Additional observations from a re-analysis of the deposited data

Results flagged for a closer look

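The difference of miR165a from REV cells passed the z test between the epidermis and the layers below for 11 members. The test was adjusted over the 4352 genes that could be linked. They had to be listed in enough comparisons for this, so they were selected for large changes. The values, epidermal minus subepidermal on the log2 scale, were 5.05 for WRKY13, 3.42 for WRKY12, 3.16 for WRKY28, 2.91 for WRKY47, 2.59 for WRKY35, 2.01 for WRKY30, 1.46 for WRKY40, 0.98 for WRKY33, 0.98 for WRKY2, -1.66 for WRKY51 and -3.54 for WRKY27. Among all genes in that test 43.8% passed.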

How the results depend on the processing

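No paired analysis was possible because the tables used here hold no values per library, and for the same reason no library could be left out. Of the counts of members, 27 alternatives stayed within 1.5 times the main count and 25 did not, and each of the 34 fold changes that a fit on 2 populations also listed kept its direction. Those fits did not list 4 calls of members: WRKY40 (1.25) and WRKY29 (1.75) in epidermal miR165a against epidermal REV, WRKY35 (-1.52) in epidermal REV against gap, and WRKY65 (-1.91) in subepidermal REV against all negative, and they added 0. Under a log2 limit of 2 the members called fell from 14 to 8 between epidermal miR165a and epidermal REV, from 4 to 1 between epidermal miR165a and gap, from 9 to 5 between epidermal REV and gap, from 6 to 3 between the subepidermal domains, from 9 to 3 between subepidermal REV and all negative, from 16 to 7 between gap and all negative, from 6 to 3 between the miR165a layers and from 18 to 8 between the REV layers. In the mixed comparisons they fell from 17 to 8 (epidermal REV and all negative), 9 to 4 (epidermal miR165a and all negative), 18 to 6 (subepidermal REV and epidermal miR165a), 13 to 5 (subepidermal miR165a and epidermal REV), 15 to 8 (subepidermal REV and gap) and 11 to 2 (subepidermal miR165a and gap). With a mean count of at least 50 they fell to 7, 0, 3, 0, 4, 9, 11 and 7 for epidermal miR165a against epidermal REV, epidermal miR165a against gap, epidermal REV against gap, subepidermal miR165a against all negative, subepidermal REV against all negative, gap against all negative, epidermal REV against all negative and subepidermal miR165a against gap. The members past the test between layers fell from 11 to 5 with standard errors 1.5 times as wide, namely WRKY13, WRKY27, WRKY51, WRKY35 and WRKY33. They fell to 0 with genes listed in both tables and to 0 with the fits on 2 populations, since WRKY22 alone could be tested there. Members of low count such as WRKY42, WRKY12, WRKY47 and WRKY65 carry wide errors, and fold changes of genes in the lowest range of counts were 1.17 to 1.27 times as large in the fits on 2 populations.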

Other observations

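A further 10 genes with a WRKY name in the annotation stood in a table but were not among the 51 members. WRKY74 (AT5G28650) was lower in miR165a than in REV cells of the subepidermis at -3.21 ± 0.67 and lower in epidermal than in subepidermal REV cells at -3.19 ± 0.67, at a mean count of 11.8. WRKY49 (AT5G43290) was higher in miR165a than in REV cells of the subepidermis by 3.16 ± 0.71 and lower in subepidermal REV than in all negative cells at -2.58 ± 0.71, at a mean count of 3.84. WRKY36 (AT1G69810) was higher in epidermal miR165a than in epidermal REV cells by 1.99 ± 0.61, and by 1.98 ± 0.60 in the same comparison of the subepidermis. WRKY72 (AT5G15130) was higher in epidermal miR165a than in epidermal REV cells by 2.08 ± 0.61 and higher in gap than in all negative cells by 2.37 ± 0.62. WRKY58 (AT3G01080) and WRKY16 (AT5G45050), whose product joins a WRKY domain to an immune receptor, were higher in epidermal miR165a than in epidermal REV cells by 1.94 ± 0.59 and 1.08 ± 0.20. WRKY66 (AT1G80590) was higher in epidermal than in subepidermal REV cells by 1.72 ± 0.67, while WRKY63 (AT1G66600) was lower there at -2.61 ± 0.70. WRKY59 (AT2G21900) was higher in gap than in all negative cells by 2.19 ± 0.71, and WRKY67 (AT1G66550) was lower in miR165a than in REV cells of the subepidermis at -2.21 ± 0.71, at mean counts of 2.06 and 1.67.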
